A study of Mus musculus with 12 samples.

Results

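The elements described here are the mouse ERVK repeats that remain once the best known groups of the family are set aside. They were chosen by name: every repeat name whose family is given exactly as ERVK, with some names left out. Left out were names that start with IAP, MMERVK, RLTR10, RLTR9 or RLTR13 and names that contain ETn or ETN. The rule used no measured value and gave 202 of the 283 ERVK names, among 18538 repeat names in all. By the start of the name they were 99 RLTR, 46 RMER, 21 ERVB, 17 MLTR, 7 BGLII, 3 MYSERV and 9 others, and 27 were internal parts while 175 were terminal repeats.

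ERVK elements are retrotransposons descended from beta-like retroviruses that entered the mouse germ line. A complete copy has an internal part, which held the viral genes, between a pair of identical long terminal repeats (LTRs), and the LTR carries the promoter. Most copies in the genome are solitary LTRs left after recombination, so that terminal and internal reads need not come from the same loci. Methylation of histone H3 is known to silence many ERVK copies in mouse cells, and KDM4A is an enzyme that removes methyl groups from lysines of that histone.

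Total RNA was sequenced from preimplantation C57BL/6 embryos at 1.5 days post fertilization, the 2-cell stage, in 6 libraries per genotype. KO embryos came from Kdm4a KO oocytes and WT embryos from WT oocytes, and all oocytes were fertilized by Kdm4a KO sperm. KO embryos thus had neither a maternal nor a paternal allele, whereas WT embryos had the maternal one, and both groups lacked the paternal allele. Other differences between the oocytes or their mothers cannot be told apart from the maternal allele. The labels give individual tubes but neither the embryos per library nor the number of females, so p-values measure the spread between these libraries. The tables hold repeats and no genes, so Kdm4a itself could not be used to check the labels.

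Libraries held 7952526 to 18902360 counts. WT replicate 2 and KO replicate 5, the shallowest, lay apart from the others on the first and second principal components (21.7% and 12.2% of the variance), and called values are given below with and without both. Counts were scaled to CPM (read counts relative to library size) with TMM factors, which correct for library composition and were 0.978 to 1.26 in KO libraries, against 0.767 to 0.977 in WT libraries. Normalised CPM is not per unit length, so it ranks elements by reads and not by transcripts. A repeat name pools all its copies, near-identical names may share reads, and reads may come from genes that carry a copy. In bulk embryos, fewer cells and less RNA per cell cannot be told apart.

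The 202 elements took a small part of the RNA in both groups. They held 3.87%, 4.18% and 4.48% of all counts in KO libraries (lowest, median and highest), against 3.35%, 3.72% and 3.96% in WT libraries, with means of 4.16% ± 0.217 in KO and 3.71% ± 0.235 in WT (SD, n = 6 each). The groups overlapped. Of the counts of the whole LTR class, the elements held 8.77% ± 0.929 in KO libraries (7.96% to 10.1%) and 6.65% ± 0.645 in WT libraries (5.62% to 7.30%, n = 6 each), without overlap. The LTR class itself held 47.7% ± 2.88 of all counts in KO libraries and 55.9% ± 2.05 in WT libraries, so the denominator was smaller in KO embryos. With TMM factors the order of the sums turned round: the elements summed to 37428 ± 2817 normalised CPM in KO libraries and 41280 ± 1447 in WT libraries (n = 6 each).

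**Figure D1:**
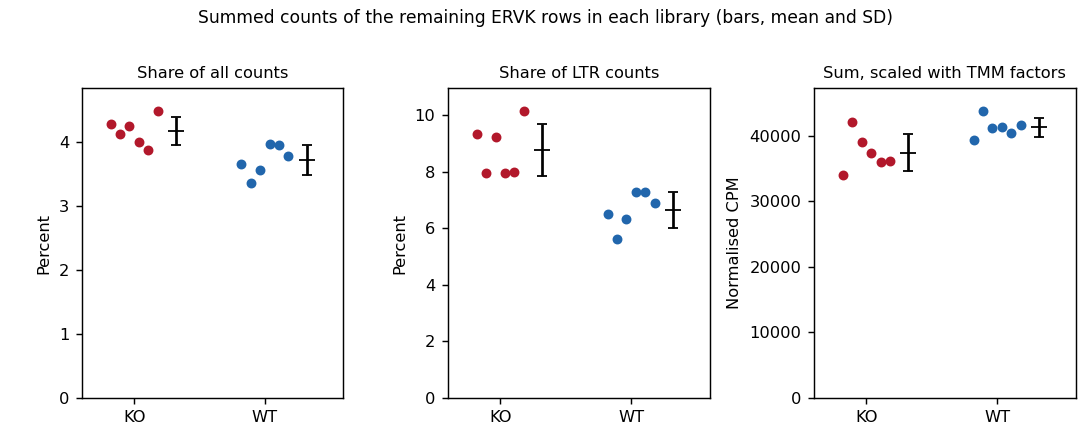
Summed counts of the 202 elements in each library, as a percent of all counts (left), as a percent of LTR counts (middle) and as normalised CPM (right). Points are libraries and bars are means with SD. The share of all counts is 4.16% in KO and 3.71% in WT, while the normalised sum is 37428 in KO and 41280 in WT, so the direction of the sum depends on the scaling.

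The make-up of the sum was alike in both genotypes. RLTR names held 41.7% of the elements' counts in KO libraries and 42.1% in WT libraries, RMER names 37.9% in KO and 37.3% in WT, and MLTR names 9.38% in KO and 9.39% in WT. ERVB names, 8 internal parts and 13 terminal repeats, held 2.89% ± 0.204 in KO and 3.20% ± 0.233 in WT (n = 6 each). Terminal repeats held 3.60% of all counts in KO and 3.20% in WT, and internal parts 0.562% in KO and 0.511% in WT.

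Of the 202 elements, 194 had enough reads to be tested. The other 8 were RMER3D1 and RMER3D2, with 0 counts in every library, and RMER3D3, RMER3D4, RLTR3_Mm, RLTR43A, RLTR43B and RNLTR23, with 0 to 85 counts in a library. The tested elements spanned a mean of 1.10 to 2237 normalised CPM, with a median of 80.7. Of these, 182 averaged at least 10 normalised CPM, 83 at least 100 and 7 at least 1000.

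Few of these elements differed between the genotypes. In edgeR's quasi-likelihood test over all 3312 tested repeats, with p-values adjusted over all of them and a threshold of 0.05, 4 elements fell in KO embryos and 1 rose. Over all tested repeats 1.27% were called lower and 0.151% higher, against 2.06% and 0.515% of these elements. The elements that fell were MLTR18_MM, ERVB4_2-LTR_MM, RLTR25B and RLTR22_Mus, and the one that rose was RLTR20A, all of them terminal repeats. MLTR18_MM and ERVB4_2-LTR_MM were about halved in KO embryos, and these 2 also fell when counts were scaled by library totals alone.

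At an unadjusted p under 0.05, 34 elements were lower and 13 higher in KO embryos. The background was 7.91% lower and 5.50% higher over all tested repeats, against 17.5% and 6.70% of the elements. Among repeats with at least 10 normalised CPM it was 14.1% lower and 8.51% higher, against 17.6% and 7.14% of the elements. The 6 KO libraries were all under the lowest WT library for 3 elements (background 1.39%) and all over the highest WT library for 1 element (background 0.725%). Fold changes centred near 0. The median log2 fold change, KO over WT, was -0.04, with quartiles of -0.18 and 0.13, and 176 of the 194 lay within 0.5 of 0. The median over all tested repeats was 0.01.

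Signs of small changes rested on the scaling. With TMM factors 77 elements had a positive and 117 a negative fold change. With library totals alone the median of all tested repeats moved to 0.32 and that of the elements to 0.26, with 166 positive and 28 negative, and 30 elements were called higher and 3 lower. That setting called 10.8% of all tested repeats higher and 0.996% lower. The median of the elements thus lay at or slightly below that of all repeats. A change of scaling moves all repeats nearly alike, so it hardly bears on this position.

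**Figure D2:**
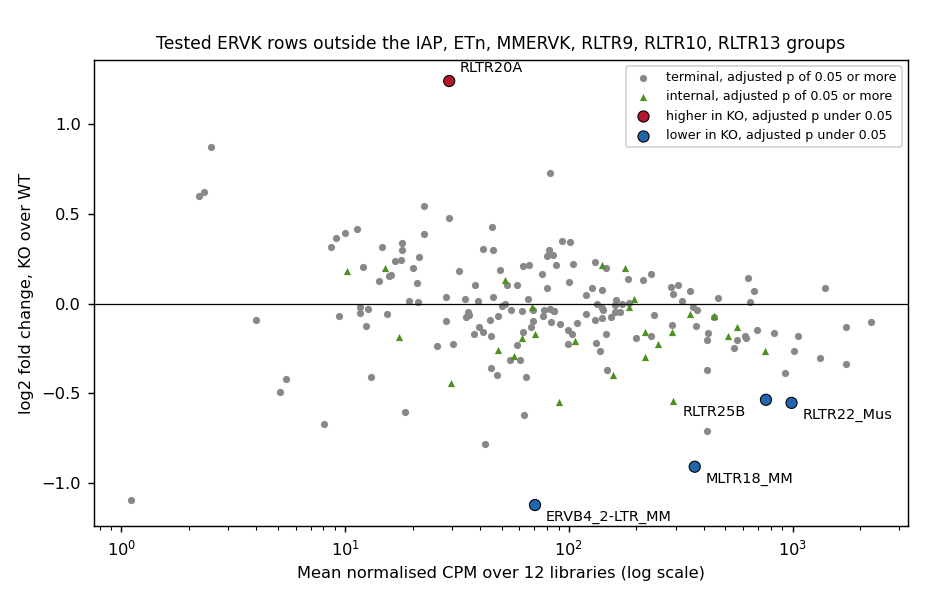
Log2 fold change (KO over WT) of each of the 194 tested elements against its mean normalised CPM over 12 libraries (log axis). Circles are terminal repeats and triangles internal parts. The 5 named points passed an adjusted p of 0.05, and 176 points lie within 0.5 of 0.

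MLTR18_MM, a terminal repeat with 4 relatives named MLTR18A_MM to MLTR18D_MM, had the smallest p. It had 167, 250 and 325 normalised CPM in KO libraries (lowest, median and highest), against 363, 501 and 544 in WT libraries. The highest KO library was under the lowest WT library. The means were 254 ± 59.1 in KO and 476 ± 74.4 in WT (SD, n = 6 each), which in log2 (KO over WT) is -0.91 (standard error, SE, 0.15) at an edgeR adjusted p of 0.0149. WT exceeded KO 1.88-fold. The call was kept without each of the 12 libraries in turn (adjusted p 0.00979 to 0.0480), and without both WT replicate 2 and KO replicate 5 the edgeR adjusted p was 0.0558 at a log2 fold change of -0.87.

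None of the relatives of MLTR18_MM passed edgeR's test. The log2 fold changes were 0.03 for MLTR18A_MM, -0.06 for MLTR18B_MM, 0.30 for MLTR18C_MM and 0.73 for MLTR18D_MM. At an unadjusted p under 0.05, edgeR gave 2 higher and 0 lower of these 4, beside 5.50% higher and 7.91% lower over all tested repeats. Within the 5 MLTR18 names MLTR18_MM held 32.2% to 57.1% of the counts in KO libraries and 59.6% to 68.2% in WT libraries, without overlap. This share needs no scaling between libraries, but it uses the counts that gave the call and is not separate support for it. Such shares were taken for called elements only, so there is no background over other names. MLTR18D_MM had 47.9, 95.6 and 172 normalised CPM in KO libraries, against 44.7, 65.04 and 78.8 in WT libraries, and the groups overlapped (SE 0.24, edgeR adjusted p = 0.149). DESeq2, which called 1.27% of all tested repeats higher and 3.83% lower, called MLTR18D_MM higher (adjusted p = 0.0301). So did edgeR without KO replicate 2 (adjusted p = 0.0278), with transposable elements only (adjusted p = 0.0330) and with library totals alone (adjusted p = 0.0123). Of 12 removals of a single library, only that 1 gave the call. Without KO replicate 1 the log2 fold change of MLTR18D_MM was 0.52 (edgeR adjusted p = 0.299). It was not called with a replicate block (edgeR adjusted p = 0.324) or in limma-voom with quality weights (adjusted p = 0.1175).

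ERVB4_2-LTR_MM is the terminal repeat of a provirus of the ERVB4 group. It had 27.9, 40.6 and 62.5 normalised CPM in KO libraries, against 70.4, 94.3 and 133 in WT libraries, again without overlap. The means were 44.5 ± 13.4 in KO and 96.6 ± 24.5 in WT (n = 6 each), so WT exceeded KO 2.18-fold. Its fold change, -1.12 in log2 (SE 0.21, edgeR adjusted p = 0.0177) was the lowest of the 194. Without KO replicate 6 the edgeR adjusted p was 0.0654, and without both WT replicate 2 and KO replicate 5 it was 0.0732 at a log2 fold change of -1.06.

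The provirus's internal part, ERVB4_2-I_MM, did not pass the test. It had 99.9, 141 and 152 normalised CPM in KO libraries, against 143, 186 and 217 in WT libraries, with some overlap. Its log2 fold change was -0.40 (SE 0.13, edgeR adjusted p = 0.141). Among the 9 ERVB4 names ERVB4_2-LTR_MM held 5.62% to 8.38% of counts in KO libraries and 9.52% to 15.9% in WT libraries, without overlap. This share too comes from the counts behind the call. The fold changes of 8 of the 9 were negative with TMM factors and those of 4 with library totals alone. Relative to the median of all tested repeats, 8 lay below and 1 above in both settings. ERVB4_2-LTR_MM was the single call among the 9 in edgeR's test. ERVB4_1-LTR_MM, the positive one with TMM factors, averaged 2.83 ± 1.81 normalised CPM in KO and 1.84 ± 0.985 in WT (n = 6 each).

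RLTR25B and RLTR22_Mus were more abundant and fell by less. RLTR25B had 521, 609 and 716 normalised CPM in KO libraries, against 676, 932 and 1108 in WT libraries. The groups overlapped, with 4 KO libraries below the lowest WT library. Its log2 fold change was -0.54 (SE 0.11, edgeR adjusted p = 0.0293), and the call was lost without any 1 of 7 libraries, KO replicates 1, 4, 5 and 6 and WT replicates 3, 4 and 6 (adjusted p up to 0.0781). RLTR25A, its one relative here, had a log2 value of -0.13, KO over WT (edgeR adjusted p = 0.563).

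RLTR22_Mus had 601, 813 and 944 normalised CPM in KO libraries, against 900, 1177 and 1469 in WT libraries. The groups overlapped, with 4 KO libraries below the lowest WT library. The log2 fold change was -0.55 (SE 0.12, edgeR adjusted p = 0.0402). The call was kept without KO replicate 2, KO replicate 3 or WT replicate 5 and lost without each of the other 9 (adjusted p up to 0.112). RLTR22_Mur, its relative, had a log2 value of -0.30, KO over WT (edgeR adjusted p = 0.344). With library totals alone RLTR25B and RLTR22_Mus had log2 fold changes of -0.22 and -0.24 and edgeR adjusted p-values of 0.105 and 0.0790. Without both WT replicate 2 and KO replicate 5 the edgeR adjusted p was 0.0965 for RLTR25B and 0.126 for RLTR22_Mus.

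RLTR20A was the element that rose. It had 17.5, 38.9 and 69.4 normalised CPM in KO libraries, against 11.5, 17.3 and 24.2 in WT libraries, and 5 of 6 KO libraries lay above the highest WT library. The means were 41.0 ± 19.0 in KO and 17.3 ± 4.26 in WT (n = 6 each), a 2.36-fold difference. Its log2 fold change was 1.24 (SE 0.29), and the edgeR adjusted p of 0.0495 was just inside the threshold. It was kept without KO replicate 4 and lost without any of the other 11 libraries (adjusted p up to 0.118). Without both WT replicate 2 and KO replicate 5 the edgeR adjusted p was 0.126, and in limma-voom with quality weights it was 0.141.

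**Figure D3:**
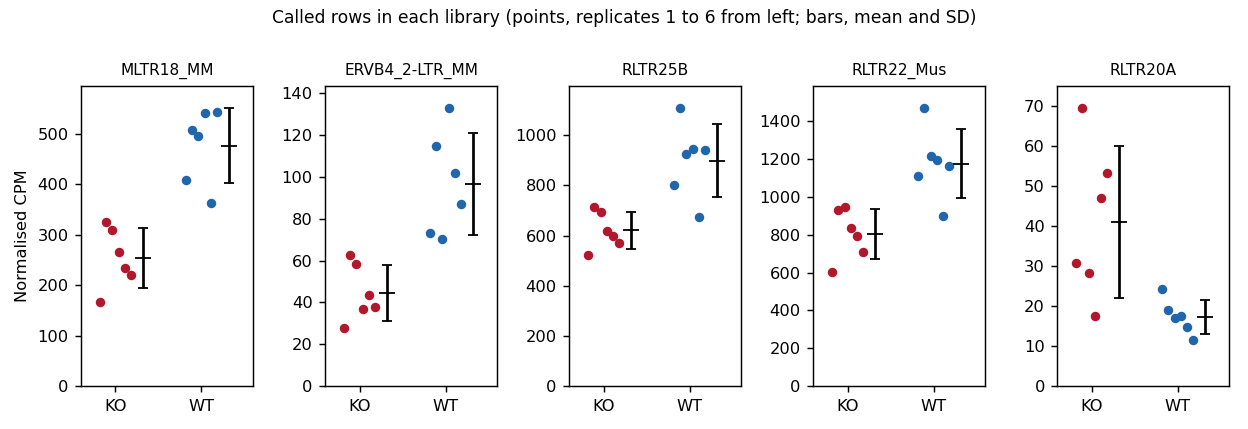
Normalised CPM of the 5 called elements in each library, with KO left of WT. Points are libraries and bars are means with SD. KO and WT libraries are apart for MLTR18_MM and ERVB4_2-LTR_MM and overlap for RLTR25B, RLTR22_Mus and RLTR20A.

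RLTR20A belongs to the RLTR20 names, a set of 16 terminal repeats, of which 12 had a positive fold change with TMM factors. Relative to the median of all tested repeats, 12 lay above and 4 below. A change of scaling moves all repeats nearly alike, so it hardly bears on that split. The median log2 fold change of the 16 names was 0.22, and RLTR20A was the single call in edgeR's test with TMM factors. DESeq2 called 3 of the 16 higher, RLTR20A, RLTR20A2 (adjusted p = 0.0232) and RLTR20A2B_MM (adjusted p = 0.0413), beside 1.27% of all tested repeats. With library totals alone edgeR called 7 of the 16 higher, beside 10.8% of all tested repeats. RLTR20A2 had 22.1, 26.1 and 35.8 normalised CPM in KO libraries, against 14.3, 17.8 and 24.7 in WT libraries (log2 fold change 0.54, SE 0.16, edgeR adjusted p = 0.1003). RLTR20A2B_MM had a log2 value of 0.48, KO over WT (SE 0.15, edgeR adjusted p = 0.150). Among the 16 names RLTR20A held 2.10% ± 0.982 of counts in KO and 0.939% ± 0.240 in WT (n = 6 each), and these shares overlapped.

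Several terminal repeats came near the threshold without passing it. RLTR12D had 234, 332 and 382 normalised CPM in KO libraries, against 346, 477 and 773 in WT libraries (log2 fold change -0.71, SE 0.17, edgeR adjusted p = 0.0552). RLTR12F had 22.1, 32.3 and 38.9 in KO libraries, against 39.2, 48.5 and 90.1 in WT libraries (log2 fold change -0.78, SE 0.21, edgeR adjusted p = 0.0755). The groups overlapped for RLTR12D and not for RLTR12F. The other 8 RLTR12 names had log2 fold changes between -0.13 and 0.27. With DESeq2 both RLTR12D (adjusted p = 0.00302) and RLTR12F (adjusted p = 0.00796) were called lower.

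The RLTR31 names went both ways. RLTR31M had 33.5, 50 and 68.1 normalised CPM in KO libraries, against 62.9, 78.0 and 89.0 in WT libraries (log2 fold change -0.62, SE 0.15, edgeR adjusted p = 0.0552). RLTR31C_MM had 90.6, 103 and 117 in KO libraries, against 65.2, 83.5 and 96.5 in WT libraries (log2 fold change 0.35, SE 0.11, edgeR adjusted p = 0.154). Both pairs of groups overlapped. Of the 8 RLTR31 names 5 were positive and 3 negative with TMM factors, and 0 were called by edgeR. At an unadjusted p under 0.05 edgeR gave 1 higher and 1 lower, beside 5.50% and 7.91% of all tested repeats. With DESeq2, and with limma-voom, which called 1.90% of all tested repeats lower and 0.242% higher, 1 RLTR31 name was called lower, RLTR31M. With library totals alone edgeR called 3 RLTR31 names higher, beside 10.8% of all tested repeats.

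**Figure D4:**
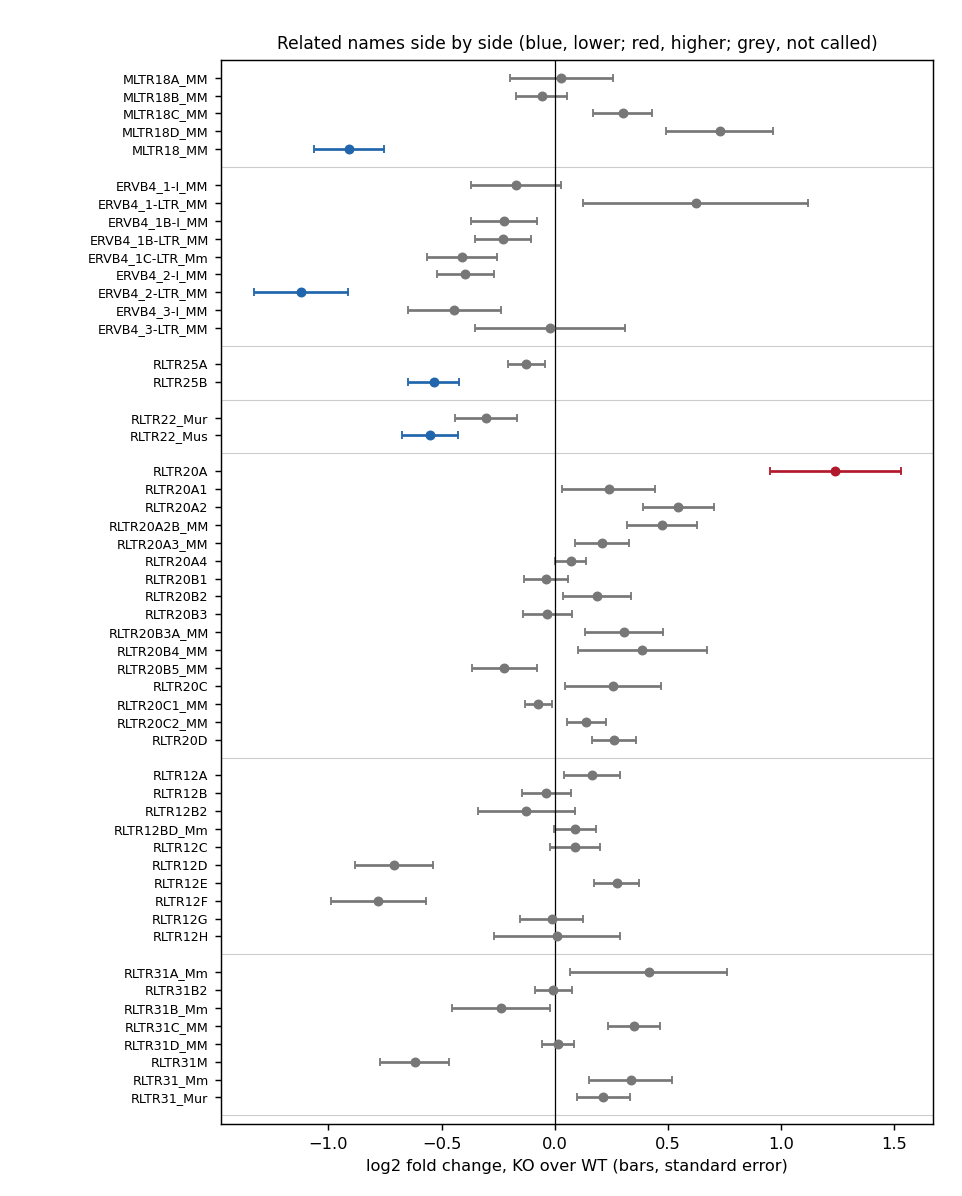
Log2 fold change (KO over WT, points) with its standard error (bars) for the elements of the 7 groups of related names that the text describes. The blue points passed the test as lower and the red one as higher. MLTR18_MM at -0.91 stands beside MLTR18D_MM at 0.73, and RLTR12D at -0.71 beside RLTR12E at 0.27.

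RMER names, most of them terminal repeats, made up a large share of the elements' reads, and 0 of them were called by edgeR, by DESeq2 or by limma-voom. Of 42 tested, 9 had a positive fold change with TMM factors and 39 with library totals alone. Relative to the median of all tested repeats, 9 lay above and 33 below in both settings. Library totals alone called 4 of them higher, beside 10.8% of all tested repeats. At an unadjusted p under 0.05 edgeR gave 1 higher (2.38%) and 8 lower (19.0%). Over repeats with at least 10 normalised CPM, which all 42 had, the shares were 8.51% higher and 14.1% lower. RMER20A had 130, 139 and 154 normalised CPM in KO libraries, against 114, 119 and 126 in WT libraries. The lowest KO library exceeded the highest WT library, but the difference was small (log2 fold change 0.23, SE 0.07, edgeR adjusted p = 0.131).

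The 10 elements with the most reads held 32.7% ± 1.75 of the elements' counts in KO libraries and 34.4% ± 1.29 in WT libraries (n = 6 each). Of these 10, 9 had a negative fold change with TMM factors, and RLTR22_Mus was the single call. With library totals alone 4 were negative and 6 positive. RLTR17B_Mm had the most reads, with 1847, 2127 and 2577 normalised CPM in KO libraries, against 2113, 2297 and 2515 in WT libraries (log2 fold change -0.10, edgeR adjusted p = 0.672). RMER17C averaged 1535 ± 306 in KO and 1938 ± 168 in WT (log2 fold change -0.34, edgeR adjusted p = 0.167). RMER19B averaged 1652 ± 104 in KO and 1808 ± 86.5 in WT, and RMER6A 1435 ± 226 in KO and 1350 ± 200 in WT, with edgeR adjusted p-values of 0.388 and 0.843. For each of these 4 the ranges of KO and WT libraries overlapped. The log2 fold changes of RLTR22_Mur, RMER6C, MLTR11A, RLTR26 and RLTR11A lay between -0.39 and -0.16, with edgeR adjusted p-values of 0.235 to 0.422.

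Internal parts, which hold what is left of the viral genes, gave 0 calls among 27 in edgeR's test. With TMM factors 6 were positive and 21 negative, with a median log2 fold change of -0.17, while with library totals alone 22 were positive. Relative to the median of all tested repeats, 6 lay above and 21 below in both settings. At an unadjusted p under 0.05 edgeR gave 2 higher (7.41%) and 6 lower (22.2%). Over all repeats with at least 10 normalised CPM the shares were 8.51% higher and 14.1% lower. DESeq2 called 3 of the 27, MYSERV6-int, ERVB4_2-I_MM and SRV_MM-int, and limma-voom called 1, SRV_MM-int, all lower, beside the 3.83% and 1.90% of all tested repeats that these tools called lower. SRV_MM-int had 50.1, 74.0 and 87.3 normalised CPM in KO libraries, against 83.3, 106 and 140 in WT libraries (log2 fold change -0.55, SE 0.14, edgeR adjusted p = 0.0643). MYSERV6-int had 606, 686 and 741 in KO libraries, against 737, 839 and 891 in WT libraries (log2 fold change -0.26, SE 0.07, edgeR adjusted p = 0.0810). The groups overlapped for both, with 4 KO libraries below the lowest WT library for SRV_MM-int and 5 for MYSERV6-int.

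The other MYSERV internal parts differed in sign. MYSERV-int averaged 150 ± 20.6 in KO and 130 ± 9.79 in WT (log2 fold change 0.21, edgeR adjusted p = 0.351). MYSERV16_I-int averaged 434 ± 41.6 in KO and 455 ± 51.1 in WT (log2 fold change -0.07, edgeR adjusted p = 0.834). MMTV-int, the internal part of mouse mammary tumour virus, was near the lower end of the reads, at 10.9 ± 3.95 in KO and 9.55 ± 1.44 in WT (log2 fold change 0.18, edgeR adjusted p = 0.841). RLTR45-int, at 237 ± 67.5 in KO and 346 ± 116 in WT, had a log2 value of -0.54, KO over WT (SE 0.22, edgeR adjusted p = 0.259). The RMER internal parts were RMER16-int, RMER3D-int, RMER17C-int, RMER6-int and RMER17A-int, with log2 fold changes of -0.21 to -0.02 and edgeR adjusted p-values of 0.531 to 0.988. KO and WT libraries overlapped for every internal part named in these sentences.

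Other proviral internal parts also differed by less than the test could call. MurERV4_19-int averaged 197 ± 21.4 in KO and 242 ± 39.8 in WT (log2 fold change -0.30, edgeR adjusted p = 0.223). RLTR42-int averaged 191 ± 10.7 in KO and 167 ± 23.1 in WT (log2 fold change 0.20, edgeR adjusted p = 0.357). ERVB4_3-I_MM averaged 25.2 ± 4.90 in KO and 34.4 ± 12.1 in WT, where WT replicate 2 alone reached 57.4 (log2 fold change -0.44, edgeR adjusted p = 0.366). For these 3 the groups overlapped, and MERVK26-int was almost level, at 198 in KO and 194 in WT (edgeR adjusted p = 0.960).

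Terminal and internal counts of matching names can be compared within a library, which needs no scaling. This was possible for 15 internal parts, 2 of which share the terminal repeat ERVB4_1B-LTR_MM. Terminal names that matched the internal name, or added 1 letter or number to it, were summed. The sum took 1 terminal name for ERVB4_2-I_MM and 5 each for RLTR19-int and RLTR44-int. None of the 15 log2 ratios passed an exact two-sided permutation test over all 924 regroupings of the libraries once adjusted over the 15, and 1 had an unadjusted p under 0.05. That one was ERVB4_2, where the log2 ratio of terminal to internal counts averaged -1.66 ± 0.34 in KO libraries and -0.91 ± 0.43 in WT libraries (n = 6 each). The difference was -0.74 (exact permutation p = 0.00866, adjusted p = 0.130), with each of the 6 KO libraries under the WT median. The other 14 had adjusted exact permutation p-values of 0.825 to 0.926.

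**Figure D5:**
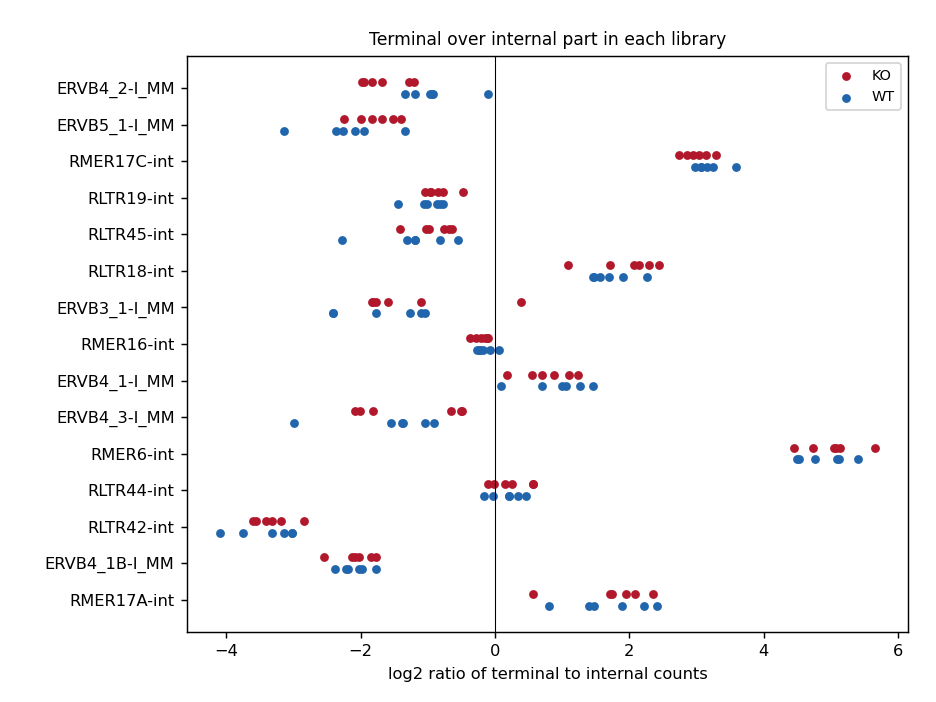
Log2 ratio of terminal to internal counts for 15 internal parts in each KO library (upper points of each row) and WT library (lower points). Where several terminal names matched an internal part, their counts were summed. A value below 0 means fewer terminal than internal reads. ERVB4_2-I_MM averages -1.66 in KO and -0.91 in WT, and the points of KO and WT overlap in every row.

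Libraries of a genotype varied about as much in KO as in WT embryos. Over the 182 elements with at least 10 normalised CPM, the coefficient of variation had a median of 15.99% in KO (3.83% to 50.4%) and 15.01% in WT (3.57% to 53.1%), and it was under 20% for 126 elements in KO and 125 in WT. Single libraries stood at the extremes more often than others. KO replicate 1 was the lowest KO library for 55 of the 182 elements, KO replicate 2 the highest for 54 and WT replicate 2 the highest WT library for 61. For the called elements, the text above gives the libraries without which a call was lost, but not the fold change without each library.

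Set beside the rest of the family, these elements had a higher median fold change under both scalings. With TMM factors their median of -0.04 compares with -0.20 over the other 80 tested ERVK names, of which 3 were called lower and 0 higher by edgeR (at an unadjusted p under 0.05, 24 lower and 0 higher). By name those medians were -0.34 for IAP, -0.25 for MMERVK with RLTR10, -0.22 for ETn and -0.08 for RLTR9 with RLTR13. With library totals alone the medians were 0.26 for these elements, 0.11 for the other ERVK names and 0.32 for all tested repeats. Which group lay nearer to 0 thus depended on the scaling. The medians by name were then -0.05 for IAP, 0.06 for MMERVK with RLTR10, 0.06 for ETn and 0.25 for RLTR9 with RLTR13. RLTR9 with RLTR13 thus lay close to these elements. LTR repeats outside ERVK had a median of -0.02 with TMM factors, with 19 lower and 1 higher of 363, and of 0.30 with library totals alone. Among repeats with at least 10 normalised CPM the order turned round. The 258 LTR repeats outside ERVK then had medians of -0.07 with TMM factors and 0.24 with library totals alone. For these elements they were -0.04 and 0.26. The differences between these medians were not tested, since repeats of one library are not replicates.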

How the data were processed

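Total RNA of 12 libraries was prepared with a stranded low-input kit and ribosomal RNA depletion, per the labels' protocols. The deposited values, 1 whole number per repeat name, were taken as estimated counts. File naming holds the terms uniq and fraction, which nothing explains, so reads may have been divided among repeats before deposit, and how reads with several matches were treated is unknown. The submitters' processing notes name mm10, Trimmomatic 0.32 and edgeR without roles. For the aligner, the repeat annotation, the counting program and any use of strand, nothing is given in the sources used here. Groups and replicate numbers come from the titles. The numbers in the names of the deposited tables run opposite to these, so a replicate named here may carry another number there.

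The fit used edgeR 4.0.16 in R 4.3.3 on all repeats that passed filterByExpr (3312), with TMM factors, library sizes over all repeats, genotype as the only term and Benjamini-Hochberg adjustment. Standard errors were taken from the F statistic. Other settings used DESeq2 1.42.0, limma-voom 3.58.1, other scalings and filters, a replicate block and removal of libraries. Ratios of terminal to internal counts had 0.5 added to the summed terminal count and to the internal count. They were compared with scipy 1.17.1, where 0.00216 is the smallest p that 6 against 6 allows. In 30 pairs of replicates the chi-square per degree of freedom was 29.3 to 174, so no pair was within sampling noise.

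Elements and lists were chosen with earlier results of these data known. Named were all calls, the 10 elements with the most reads, the 6 with the smallest p in each direction, 3 markers, internal parts with at least 10 normalised CPM, and the 3 highest and 3 lowest fold changes among elements with at least 10 normalised CPM. Relatives of called elements were named after their values were seen. Sequences of the repeats were not used here. Reads carry no molecular identifiers, so a count is not a number of independent molecules.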

Additional observations from a re-analysis of the deposited data

Results flagged for a closer look

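Single libraries stood far from the other 5 of their genotype in 12 of 132 group values tested. Chance would give about 1 in 20 for independent, normally distributed values. These group values share libraries and counts, and the elements were named with results known. The count thus cannot be read against that rate. The measure was the gap to the nearest library divided by the group's range, set against Dixon's critical value for 6 libraries. RLTR12F in WT reached 0.784, with WT replicate 2 at 90.1 normalised CPM and the others at 39.2 to 50.2. WT replicate 2 was also highest for ERVB4_3-I_MM (57.4 against 24.7 to 36.2, value 0.647) and lowest for the ERVB4_3 log2 ratio of terminal to internal counts (-3.00 against -1.55 to -0.91, value 0.693).

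KO replicate 1 was lowest for ERVB4_2-I_MM (99.9 against 135 to 152, value 0.674) and for MurERV4_19-int (155 against 195 to 211, value 0.704). KO replicate 2 was highest for RLTR20A2 (35.8 against 22.1 to 26.8, value 0.652) and for MurERV4-int (426 against 300 to 340, value 0.683). WT replicate 4 was highest for RLTR20A2 (24.7 against 14.3 to 18.1, value 0.628) and for the ERVB4_2 log2 ratio (-0.11 against -1.34 to -0.92, value 0.654). WT replicate 5 was highest for ERVB3_1-I_MM (105 against 44.4 to 65.2, value 0.656). The log2 ratio of ERVB3_1 was highest in KO replicate 6 (0.39 against -1.84 to -1.10, value 0.668), and that of RMER17A lowest in KO replicate 5 (0.57 against 1.71 to 2.36, value 0.640).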

How the results depend on the processing

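The count of elements called higher in KO embryos, 1 as reported, was 30 with library totals alone, 5 with transposable elements only and 4 with DESeq2, settings that called 10.8%, 2.82% and 1.27% of all tested repeats higher. It was 0 with RLE factors, no filter, the 20 most abundant repeats left out, WT replicate 2 and KO replicate 5 left out together, and limma-voom, where 11 to 13 elements were higher at an unadjusted p under 0.05. The count called lower, 4 as reported, was 2 with no filter, 10 with a mean of at least 10 CPM, 11 with transposable elements only, 12 with DESeq2, 7 with limma-voom and 0 with WT replicate 2 and KO replicate 5 left out together (24 at an unadjusted p under 0.05). In that order these settings called 0.164%, 6.37%, 8.64%, 3.83%, 1.90% and 0.555% of all tested repeats lower. DESeq2 called all 5 of the reported elements. With single libraries left out, the higher count ranged from 0 to 1 and the lower count from 1 (without KO replicate 6) to 7 (without KO replicate 2). It was 2 without KO replicates 1, 4 or 5 or WT replicates 3, 4 or 6. The replicate block gave 0 higher (14 at an unadjusted p under 0.05) and 4 lower. Same-numbered libraries correlated at -0.07 to 0.155, with 1 of 6 above 0.1, so the numbers were not taken as pairs, and 2 of 6 KO libraries matched their own number best. The difference in share, 0.454 percentage points of all counts, was 2.12 of LTR counts alone, by its own smaller denominator. No direction of a called element reversed. Other causes of these changes were not tested. The 8 elements with too few counts were not tested.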
